A study of Mus musculus with 4 samples.

Results

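The alpha-globin locus was examined as a window of 120 kb on mouse chromosome 11, from 32100000 to 32220000 on the build mm9. The window was set by position alone and holds Nprl3 with the upstream enhancers, Hba-x, Hba-a1 and Hba-a2. All 5 summits of the authors' list of 945 KLF1 peaks that start in the window were taken, together with all its aligned reads, 1406 from the KLF1 ChIP and 3686 from the input. In ChIP-seq, chromatin is immunoprecipitated for 1 protein and the DNA held with it is sequenced, so that reads pile up where the protein sat. The DNA came from 4 pooled fetal livers of stage E14.5, all Klf3 -/- on a Balb/c background and labelled female, and the antibody was a rabbit polyclonal to KLF1. The input was DNA of the same strain and stage taken without an antibody, so both groups lack Klf3, the gene of a related factor. SOLiD System 2.0 and System 3.0 each gave 1 run of either group, and the deposited reads hold both runs combined. There is therefore 1 library a group and no replicate error, and every interval below covers counting error only. The label gives the cell type as erythroid, which DNA reads could not check.

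KLF1 is a zinc finger activator of red cell precursors that recognises CACCC-type sequences. Alpha-globin is 1 of the 2 kinds of chain of haemoglobin. Hba-x encodes the embryonic zeta chain, and Hba-a1 and Hba-a2 encode the alpha chain of fetal and adult red cells. Their transcription is driven by a cluster of enhancers known as R1, R2, R3, Rm and R4, of which R1, R2, R3 and Rm lie in introns of Nprl3, a widely expressed gene whose product acts in nutrient sensing, and R4 lies between Nprl3 and Hba-x. R2 is the major element and the counterpart of the first regulatory element found upstream of the human genes.

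The gene table used here is of the build GRCm38.p6 and not mm9, so it gave gene order but no position. Along the chromosome the order was Nprl3, Hba-x, Hba-a1, Hbq1b, Hba-a2 and Hbq1a, where the Hbq1 genes are theta-globin genes. The first 4 listed summits are called R1, R2, R3 and R4 below. These names rest on knowledge of the locus and on the spacing of the summits, which were 5340, 5170 and 12949 positions apart, and on no annotation of mm9. The remaining summit, the last along the chromosome, is called the gene-side summit.

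The promoters of the genes were read from RefSeq (GRCm38.p6), where 4 of 4 members had an entry. The first 250 bases before the start of 2 of them are shown, since that of Hba-a1 is shared with its copy and no summit was listed where Hba-x falls by gene order. Capitals mark matches to CACCC and to CCNCNCCC, a form of the KLF1 motif, on either strand.
Hba-a1: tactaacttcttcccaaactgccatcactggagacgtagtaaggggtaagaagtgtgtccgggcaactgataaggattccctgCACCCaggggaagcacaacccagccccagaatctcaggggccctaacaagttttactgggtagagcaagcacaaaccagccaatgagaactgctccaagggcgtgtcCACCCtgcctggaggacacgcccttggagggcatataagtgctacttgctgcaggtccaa
Hba-x: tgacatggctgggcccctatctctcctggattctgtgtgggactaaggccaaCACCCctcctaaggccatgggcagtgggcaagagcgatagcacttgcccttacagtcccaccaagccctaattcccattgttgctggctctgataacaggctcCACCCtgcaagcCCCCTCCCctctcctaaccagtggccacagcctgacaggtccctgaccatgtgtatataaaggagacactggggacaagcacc
The Hba-a1 promoter held 2 CACCC matches and no match to CCNCNCCC. The match nearer to the start lay 60 to 56 bases before it. The Hba-x promoter held 2 CACCC matches and 1 match to CCNCNCCC, and the Nprl3 promoter held 4 overlapping matches to CCNCNCCC and none to CACCC. Such letters are common: 52.0% of 32841 promoters of this length held CACCC and 45.9% held CCNCNCCC. The motif of GATA factors searched, AGATAA, was in none of the 4 and in 9.99% of all promoters, and the E-box CANNTG was in each of the 4 and in 66.2%. Other forms of the GATA motif were not searched. The letters TGATAA can be read in both printed sequences, so the lack of AGATAA is not a lack of every GATA motif. These matches describe the letters and are not binding sites.

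The promoters of Hba-a1 and Hba-a2 could not be told apart by sequence. With the annotated starts set 3 bases apart, 297 of 297 bases in the table were the same in both. The Hba-x and Hba-a1 promoters shared 29.3% of bases in the best ungapped placement.

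In the reads, the gene side of the window had 2 long stretches without a single input read. The first ran from 32183251 to 32184359 (1109 positions) and the second from 32196160 to 32197533 (1374 positions), with starts 12909 apart. At the mean input density of the window, 30.7 reads per kb, they would have held 34.1 and 42.2 reads. A count of 0 allows up to 3. The ChIP library had 1 read in each, against 13.0 and 16.1 at its own mean density. They were the only stretches over 1000 positions in the window. On the whole of chromosome 11 there were 1570 such stretches, 0.0593% of the spacings between input reads. By length they made up 3.32% of the chromosome from its first to its last read. Such stretches are thus common, and having 2 in the window does not by itself mark the genes. From their order and the identity of the promoters the 2 stretches were taken to be Hba-a1 and Hba-a2, an assignment that was not tested. The sources used here do not say whether reads that fit both copies were dropped before deposit. KLF1 occupancy inside these 2 stretches was not measurable in these files, and the lack of a listed summit there says nothing about it.

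**Figure D1:**
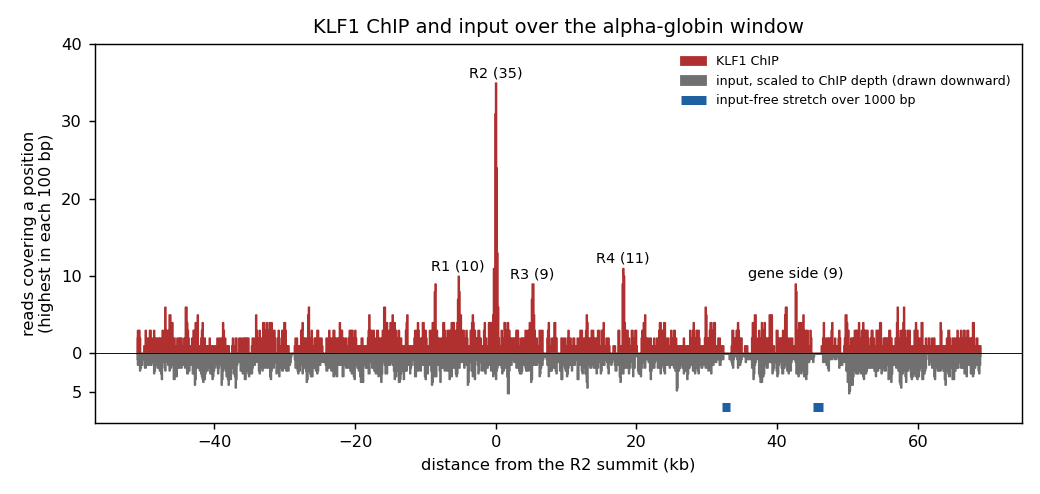
Reads covering each position over the window, as the highest value in each 100 bp, against the distance from the R2 summit in kb, with KLF1 ChIP upward and input scaled to ChIP depth downward. R2 at 35 reads stands above the other listed summits at 9 to 11, and the bars mark the 2 input-free stretches on the gene side.

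The 4 enhancer summits had heights of 35 at R2, 11 at R4, 10 at R1 and 9 at R3, and the gene-side summit had a height of 9. A height is the authors' count of ChIP reads over the summit, not scaled to depth, and in all 945 listed peaks it equalled the reads covering the listed start when each was extended by 100 positions beyond its 5' end. The list itself ran from 9 to 57 with a median of 11. Only 7 listed peaks were higher than R2, and none of them was on chromosome 11, which held 81. R4 was at the median, where 397 peaks were higher. The remaining summits were at or next to the lowest listed height, with 504 peaks higher than R1 and 661 higher than R3 and the gene-side summit. These heights chose the summits and are given as a description.

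R2, the major enhancer, lay at 32151066 to 32151067. Its summit was covered by 35 ChIP reads, 23 on the forward and 12 on the reverse strand, and by 9 input reads. Scaled to all aligned reads, 17438921 in the ChIP and 47356494 in the input, this was a ratio of 10.6 (exact 95% interval 4.98 to 25.0). The input at R2 was itself the highest of the 5 summits.

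R4, the enhancer nearest to the globin genes, lay at 32169185 to 32169187. It was covered by 11 ChIP reads and 2 input reads, a ratio of 14.9 (3.26 to 139). Of these ChIP reads 9 were on the reverse strand. The ratio depended on how far reads were extended: it was 8.15 with reads extended by 80 or 130 positions and 7.60 with 150.

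R1, the enhancer farthest from the genes, lay at 32145726 to 32145741. It was covered by 10 ChIP reads and 1 input read, a ratio of 27.2 (3.86 to 1178). The high ratio rests on that single input read, and with reads extended by 150 positions, where 3 input reads covered the summit, it was 9.96, below the 11.7 of R2. No input read started from 32145559 to 32145809, around the summit, where 14 ChIP reads did, so reads could be aligned there.

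R3 lay at 32156236 to 32156244, with 9 ChIP reads and 3 input reads over the summit, a ratio of 8.15 (2.03 to 46.8). The gene-side summit, at 32193680 to 32193685, had the same counts and so the same ratio. It lay 9323 positions past the end of the first input-free stretch and 2478 before the second. The intervals of all 5 ratios overlapped, so the order of the ratios could not be read at this depth. A ratio of 5 or more was reached by 5 of 5, beside a background of 98.4% of all listed peaks, and the ChIP reads over a summit also set its listing.

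**Figure D2:**
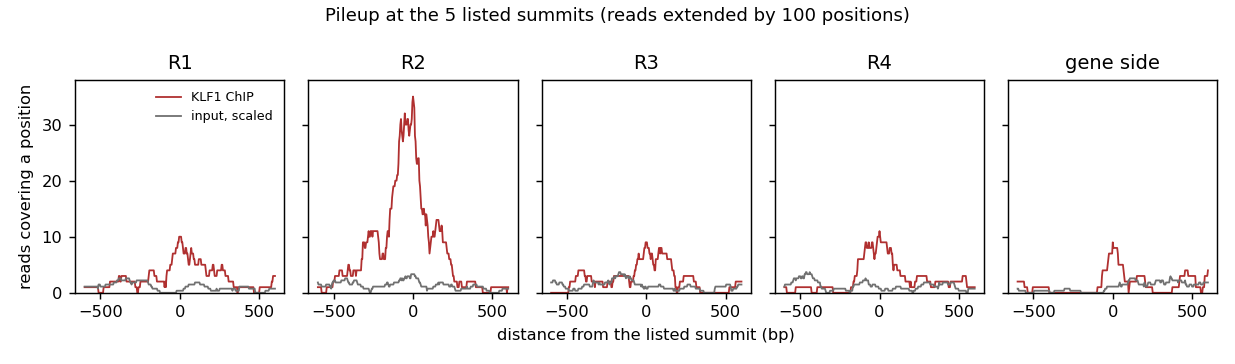
Reads covering each position within 600 bp of the 5 listed summits, for KLF1 ChIP and for input scaled to ChIP depth, with reads extended by 100 positions. R2 is the highest at 35 reads, the other summits reach 9 to 11, and R2, R1, R3 and R4 have smaller rises beside the summit.

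The summits differed less in width than in height. At 0.5 of its own height R2 was 179 positions wide, R1 223, R4 218 and R3 116, and the gene-side summit was no wider than a single extended read. R2 was thus not the widest by this measure. Its profile had smaller rises on both sides: 250 positions before the summit 11 ChIP reads and 3 input reads covered the position, after which the ChIP fell to 6 at 200 before. At 150 past the summit 13 ChIP and 4 input reads did, against 9 and 2 at 100 past. The unlisted pileup at 32150750 to 32150751, which lay 316 positions before the R2 summit, had 9 ChIP reads and 3 input reads. It was the outer part of the rise before the summit and not a separate one. Only the limit of 300 bp from a listed summit set it apart. Such rises were not particular to R2: past the R3 summit the ChIP pileup fell from 9 to 4 reads at 52 positions and rose to 8 at 80.

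Reads beside the summits gave a measure that does not include those that set the height. In the flanks, more than 100 and up to 300 bp on both sides of a summit, R2 had 38 ChIP reads and 12 input reads, a ratio of 8.60 (4.40 to 18.1). By a one-sided exact binomial test adjusted by the Benjamini-Hochberg method over all 945 listed peaks, R2 passed with p = 1.31e-10, and in flanks of up to 500 bp its ratio was 5.11 (adjusted exact p = 1.89e-09). R1 and R4 each had 10 ChIP and 14 input reads, a ratio of 1.94 (0.771 to 4.70, adjusted exact p = 0.177). In flanks of up to 200 bp the ratio was 2.26 at R1 and 2.04 at R4 (adjusted exact p = 0.296 for both). R3 had 8 and 18, a ratio of 1.21 (0.454 to 2.92, adjusted exact p = 0.558), or 2.04 in flanks of up to 200 bp (adjusted exact p = 0.296). The gene-side summit had 3 and 10, a ratio of 0.815 (0.144 to 3.16, adjusted exact p = 0.833), which became 2.04 (adjusted exact p = 0.473) in flanks of up to 200 bp. So 1 of 5 summits passed, beside a background of 29.8% of all listed peaks. The other summits did not pass, and their intervals do not exclude ratios of 2 or more.

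The flanks of R2 and of its neighbours were then compared with each other, in 6 comparisons chosen after their values were seen. R2 exceeded the other 4 summits together (38 to 12 against 31 to 56 reads) by an odds ratio of 5.72 (95% interval 2.46 to 13.7, two-sided Fisher's exact p = 6.81e-06, adjusted 4.09e-05). It exceeded R1, R3 and R4 together by an odds ratio of 5.20 (2.19 to 12.7, adjusted exact p = 0.000132). Within the enhancer cluster the reads beside R2 were thus enriched more than those beside the others. R2 was singled out for its height, and its flank reads come from the same libraries.

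With and without R2, the enhancers were compared with the gene-side summit. That summit lay outside the input-free stretches taken to be Hba-a1 and Hba-a2. The flanks of R1 to R4 together had 66 ChIP and 58 input reads, a ratio of 3.09 (2.14 to 4.48), and the odds ratio over the gene-side summit was 3.79 (0.910 to 22.3, Fisher's exact p = 0.0452, adjusted 0.0678). Without R2 the enhancers had a ratio of 1.65 (0.995 to 2.70), and the odds ratio was 2.03 (0.464 to 12.4, exact p = 0.364). Neither odds ratio passed after adjustment. Leaving out R2, the highest enhancer, lowers the value by construction, so no conclusion on R2 is drawn from the change. A difference between the gene-side summit and the weaker enhancers was not detectable at this depth.

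**Figure D3:**
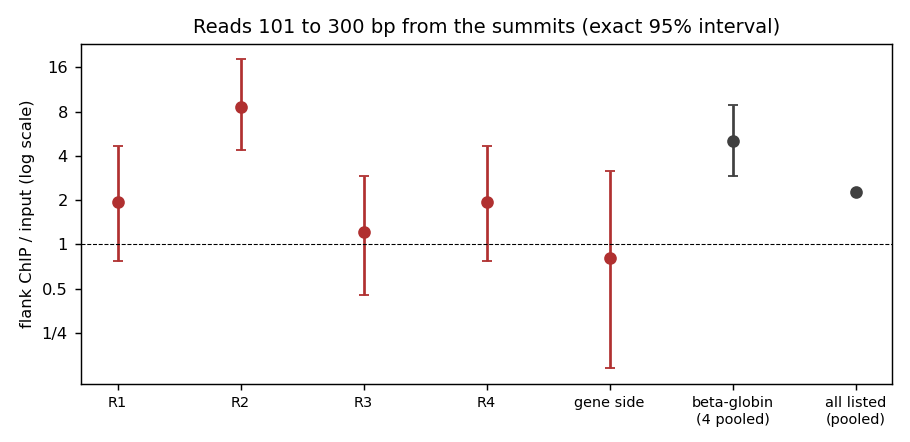
Ratio of ChIP to input reads in the flanks, which begin past 100 bp and end at 300 bp from a summit, on a log scale, with exact 95% intervals for the 5 summits of the window, the 4 pooled beta-globin summits and all 945 listed peaks pooled. R2 at 8.60 is the only summit of the window whose interval lies above 1.

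Reads leaned towards the summits. Over the 5 summits together, 66.3% of the 86 ChIP reads within 300 bp on the upstream side were on the forward strand (55.3% to 76.1%), and 31.7% of the 82 on the downstream side (21.9% to 42.9%). The input shares were 54.7% of 53 reads (40.4% to 68.4%) and 39.1% of 46 (25.1% to 54.6%). R2 alone had 34 of 54 ChIP reads forward upstream and 8 of 30 downstream, but its input leaned the same way, with 10 of 15 and 1 of 9. At the gene-side summit the counts were 6 of 6 and 3 of 6. At R4 they were 6 of 9 and 5 of 17, at R1 5 of 8 and 4 of 16, and at R3 6 of 9 and 6 of 13. The reads that form a summit take part in these shares, so they describe its shape.

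The same contrast was scanned without regard to the list, in windows of 200 bp over the whole genome. The reads are those behind the list, so calls at listed summits are no separate support for them. A window was called at 5-fold enrichment, with 1 read added to each count, and an adjusted p under 0.05 in a one-sided exact binomial test. By this rule 0.00476% of 6641507 windows were called. In the alpha-globin window 3 of 496 were called. Next to the R2 summit, 32150800 to 32150999 held 33 ChIP and 7 input reads (11.5-fold, adjusted exact p = 2.68e-08), and 32151000 to 32151199 held 36 and 10 (9.13-fold, adjusted exact p = 4.32e-08). At R1, 32145600 to 32145799 held 12 ChIP reads and no input read (35.3-fold, adjusted exact p = 0.00242). No window at R3, R4, the gene-side summit or away from the listed summits was called. The strongest of these, at R4, held 11 and 4 reads (6.52-fold) with an adjusted exact p of 0.89. An unadjusted p under 0.05 in the same test was reached by 25 windows of the locus, 5.04% against 3.03% of all windows. Windows at every listed summit are among the 25, and the ChIP reads there also set the listing. The part of these windows in the higher share was not tested.

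More than 300 bp from the listed summits, no pileup in the window passed 9 ChIP reads when reads were extended by 100 positions. The highest unlisted pileup on the enhancer side other than the shoulder of R2 was 9 ChIP reads at 32142443 to 32142447, with 6 input reads (ratio 4.07, 1.29 to 13.9). It had the same height as R3, which is listed with 3 input reads. After these came 4 pileups of 6 ChIP reads, with 3 to 6 input reads, of which the first along the chromosome lay at 32104033 to 32104078. On the gene side no unlisted pileup passed 6 ChIP reads. That height was reached by 4, with 3 or 4 input reads. The first 3 along the chromosome lay at 32180883 to 32180896 (3 input reads, ratio 5.43, 1.16 to 33.6), 32192225 to 32192234 (4 input reads, ratio 4.07) and 32208113 to 32208140 (3 input reads). These heights depended on the extension. With reads extended by 150 positions the highest unlisted gene-side pileup had 9 ChIP and 3 input reads, the same counts as the gene-side summit. The shoulder of R2 then had 14 and 5, the same counts as R4. The stretch from R4 to the first input-free stretch, in which Hba-x falls by gene order, had 142 ChIP and 362 input reads away from R4 itself, a ratio of 1.07 (0.871 to 1.30), and its highest pileup was the one at 32180883. Between the 2 input-free stretches the ratio was 1.20 (0.971 to 1.49) with the gene-side summit left out. Between R3 and R4, where Rm is known to lie, the highest pileup was 5 ChIP reads with 4 input reads, and the ratio was 0.886 (0.707 to 1.10).

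Of the 12 bins of 10 kb, that from 32150000 to 32159999, which holds R2 and R3, passed the test, and the others did not. It had 210 ChIP and 302 input reads, a ratio of 1.89 (1.58 to 2.26), with an exact one-sided binomial p of 1.15e-08 adjusted over 254848 bins of the genome. The background was 0.428% of bins called. The bins with the next highest ratios were those of the input-free stretches, at 1.35 (1.05 to 1.73, adjusted exact p = 0.256) and 1.31 (1.03 to 1.66, adjusted exact p = 0.304), and that of R1 at 1.30 (1.07 to 1.58, adjusted exact p = 0.202). The first 2 of these had 199 and 218 input reads, the fewest of the 12 bins. The bin at 1.31 also holds the gene-side summit, which was listed for its ChIP reads. The part of the input-free stretches and of that summit in these ratios was not tested. The lowest ratio, 0.616 (0.479 to 0.783), was at 32110000 to 32119999, below the 2.5th percentile of 0.699 over bins with at least 100 input reads.

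**Figure D4:**
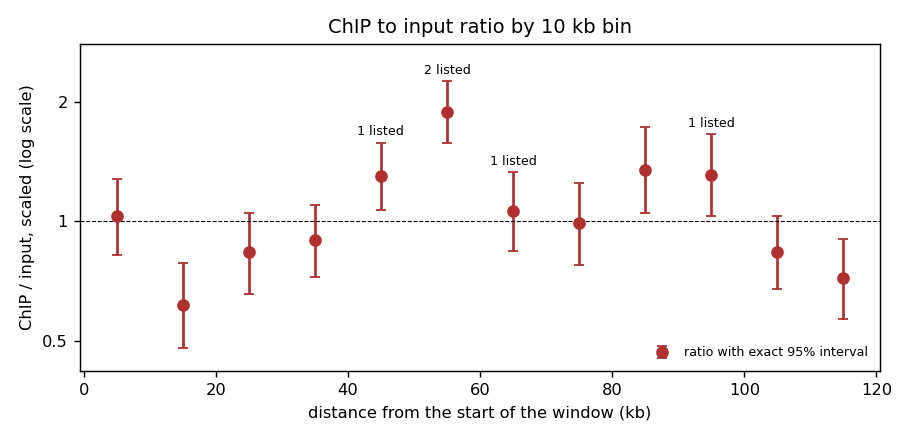
Scaled ratio of ChIP to input reads in the 12 bins of 10 kb of the window, on a log scale, with exact 95% intervals and the number of listed summits in each bin. The bin with R2 and R3 is highest at 1.89, and the others lie between 0.616 and 1.35.

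Summed over the whole window, ChIP and input differed little. The ratio of ChIP to input was 1.04 (0.973 to 1.10, two-sided exact binomial p = 0.262). Scaled to the reads of chromosome 11 instead of all reads it was 1.07 (exact p = 0.0357). It was 0.936 (p = 0.0477, same exact test) when reads within 300 bp of a listed summit were left out. The 2 sides of 60 kb, divided at the midpoint 32160000, had ratios of 1.07 (0.987 to 1.17) on the side of R1, R2 and R3 and 0.993 (0.905 to 1.09) on the side of R4 and the globin genes. Their odds ratio was 1.08 (0.954 to 1.23, two-sided Fisher's exact p = 0.22), and 0.971 (0.852 to 1.11, exact p = 0.668) without the summits. The direction depended on the boundary. With the boundary 10 kb lower, R2 and R3 lay on the gene side and the odds ratio was 0.822 (exact p = 0.00218). The gene side then had a ratio of 1.13 (1.04 to 1.22). At this lower boundary the odds ratio without the summits was 0.923 (0.808 to 1.05, exact p = 0.233). The part of R2 alone in the change was not tested. Since the summits were listed for their ChIP reads, leaving them out lowers a ratio by construction.

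The beta-globin locus, which encodes the other chain of haemoglobin, held 4 listed summits within 60 kb of its control region on chromosome 7. Their heights were 12, 17, 13 and 10, all under R2 and, except the last, above R4. Over the summits they had 3, 0, 2 and 3 input reads. Their pooled flank ratio of 5.06 (2.94 to 8.92) was lower than the 8.60 of R2, a difference not tested. All 5 alpha-globin summits together had a ratio of 2.76 (1.94 to 3.91), and the odds ratio against beta-globin was 0.544 (0.279 to 1.05, two-sided Fisher's exact p = 0.0662, adjusted 0.0794). Without R2 the odds ratio against beta-globin was 0.297 (0.142 to 0.617, adjusted Fisher's exact p = 0.000969). Leaving out R2, the highest alpha-globin summit, lowers that value by construction, so no conclusion is drawn from it. Over all 945 peaks the flank ratio was 2.28.

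R1, R2 and R3 formed 1 of 51 groups of listed peaks with neighbours within 10 kb, spanning 10510 positions. Their heights summed to 54, and 3 groups had a higher sum, while 2 had a higher peak. With neighbours within 15 kb R4 joined them, which gave 1 of 4 groups with at least 4 peaks, among 60, and a sum of 65.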

How the data were processed

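KLF1 ChIP and input DNA were sequenced on SOLiD System 2.0 and 3.0, and per the labels' design text the deposited files hold both runs combined, so the 4 samples form 2 libraries of 17438921 and 47356494 reads. Per the submitters' processing notes the build was mm9. The aligner, the peak caller and the treatment of duplicates and of reads that fit several places are not given in the sources used here. The deposited read files give chromosome, position and strand. No reads shared both position and strand. The fourth column of the authors' peak list is a signal, the pileup height of ChIP reads at the summit. Coordinates are printed as deposited. Library preparation kept short fragments, per the labels' protocols.

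Ratios were scaled to all aligned reads, with exact Clopper-Pearson 95% intervals. Tests compare 2 libraries, not conditions. Windows of 200 bp needed at least 5 reads in both libraries together. The scan was tested on simulated data. The named sites were all listed summits of the window and the 3 highest unlisted pileups on each side of the midpoint, at least 300 bp from a listed summit and from each other. The members, sites and lists were chosen with earlier results of these data known. Flank comparisons between summits, bins of 10 kb, input-free stretches, segments and groups within 15 kb were added after seeing the data. Genomic sequence at the summits was not used here. Tools were SciPy 1.17.1 for the tests, NumPy 2.4.6 and pandas 2.3.3 for counting and matplotlib 3.10.9 for plots, under Python 3.11.15.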

Additional observations from a re-analysis of the deposited data

How the results depend on the processing

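For 20 results 61 alternatives were run, and 6 of these alternatives were added once the data had been seen. Of the 61 alternatives, 54 kept the direction and the side of the threshold or stayed within counting error. The ratio of the whole window, 1.04, was 1.07 when scaled to chromosome 11 reads (exact binomial p = 0.0357), 0.936 without reads near the summits and 0.975 without 100 bp bins that had no input read. Both omissions lower the ratio by construction, since the summits were listed for their ChIP reads and such bins can lose ChIP reads only. The odds ratio of the enhancer side over the gene side, 1.08, was 0.971 without the summits. With the boundary 10 kb lower, which by construction moves R2 and R3 to the other side, it was 0.822. With the boundary 10 kb higher, which puts R4 on the side of R1, R2 and R3, it was 1.09 (Fisher's exact p = 0.166). In flanks of up to 200 bp the flank ratios of R3, R4 and the gene-side summit were each 2.04, and that of R1 was 2.26. The gene-side summit was thus not below R3 and R4 at this width. In flanks of up to 500 bp the ratio of R2 was 5.11. The cause of these changes was not tested. With reads extended by 150 positions the summit ratios of R1 and R4 were 9.96 and 7.60, and more input reads covered both summits. Listed summits numbered 2 at a height of 11 or more, R2 and R4. R2 passed the flank test in every setting run (3 alternatives), and the other 4 summits in none. With reads extended by 80 positions R1 had no input read over its summit and gave no ratio. No paired analysis was possible because the files hold both sequencing runs combined, and for the same reason leaving out a run was not run. Counts of 1 to 3 input reads limit every summit ratio but that of R2.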

Other observations

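Beside the 1 ChIP read inside each, the edges of the 2 input-free stretches held the reads closest to Hba-a1 and Hba-a2 if the stretches are those genes. In the 1000 positions before the first stretch there were 5 ChIP and 17 input reads (ratio 0.799, 0.230 to 2.26) and after it 10 and 12 (2.26, 0.876 to 5.72). Before the second there were 9 and 18 (1.36, 0.537 to 3.18) and after it 12 and 17 (1.92, 0.835 to 4.26). All 4 intervals include 1, and the highest ChIP pileup at any edge was 4 reads. The promoters of the theta-globin genes Hbq1b and Hbq1a, the neighbours of the 2 alpha genes, had the same base at 95.3% of 300 positions, less than the adult alpha pair.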
